A study of Sus scrofa with 20 samples.

Results

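Polycystin-1 silencing was compared directly with polycystin-2 silencing in cells in which MRTF-A was silenced as well. The comparison set the 4 libraries labelled siPC1+siMRTF-A against the 4 labelled siPC2+siMRTF-A, which are 8 of the 20 libraries of the series. All transcripts of the table were kept, so the choice rested on the labels and not on any measured value.

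Polycystin-1 and polycystin-2 are membrane proteins that are made by the genes mutated in autosomal dominant polycystic kidney disease. Polycystin-1 is a large receptor-like protein, polycystin-2 is a cation channel of the TRP family, and the pair can assemble into one complex at the primary cilium of tubular cells. MRTF-A is a transcriptional coactivator that is held in the cytoplasm by monomeric actin and, once released by actin polymerization, enters the nucleus and drives target genes through serum response factor.

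The cells were LLC-PK1, an epithelial line from the pig proximal tubule, and RNA was taken 48 h after transfection, the second day of which was without serum. By the labels, 4 libraries received a non-related control siRNA (siNR), 5 received siPC1, 3 received siPC2, 4 received siPC1+siMRTF-A and 4 received siPC2+siMRTF-A. The paper gives other sizes for most of these groups without naming the libraries, and the labels were followed. No group received siMRTF-A without an siRNA against a polycystin. By the study's methods the siRNA against polycystin-1 was used at a higher concentration than that against polycystin-2, so the target, the siRNA sequence and its dose cannot be told apart in any difference given here. Nothing in the labels says that the libraries of a group came from separate cultures, and p-values measure only the spread between these libraries, which may be technical.

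The values are estimated counts per Ensembl transcript, counted against coding sequences. The files do not pair the transcript identifiers with genes, and 0 of 46295 identifiers matched the gene tables used here. No gene is therefore named, and the fall of the 3 siRNA targets and the markers of proximal tubule cells were not analysed here. The 4 transcripts described singly were chosen by a fixed rule and do not stand for the rest. The total estimated count of the 8 compared libraries ranged from 22874625 to 71007731. Both shallow libraries of the series, siPC1 replicate 1 with 4421001 counts and siPC2 replicate 2 with 11790504, lie outside the comparison.

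One of the 8 libraries stood apart from the rest. Over transcripts with a mean count of at least 50, the first principal component held 25.4% of the variance. The scores on it were 18.8, 23.0, 18.2 and 104.5 for siPC1+siMRTF-A replicates 1 to 4, and ran from -46.8 to -32.6 for siPC2+siMRTF-A. Replicate 4 of siPC1+siMRTF-A, which was also the shallowest of the 8, lay far from its group, while the compared groups did not overlap on this component. Pearson's r of the log2 levels was 0.919 to 0.925 among the other 3 siPC1+siMRTF-A libraries, 0.886 to 0.890 between them and replicate 4, and 0.903 to 0.936 within siPC2+siMRTF-A. Between the groups it was 0.865 to 0.918. The likeness of replicate 4 to its own group lay within that range, as did the lowest value within siPC2+siMRTF-A.

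**Figure D1:**
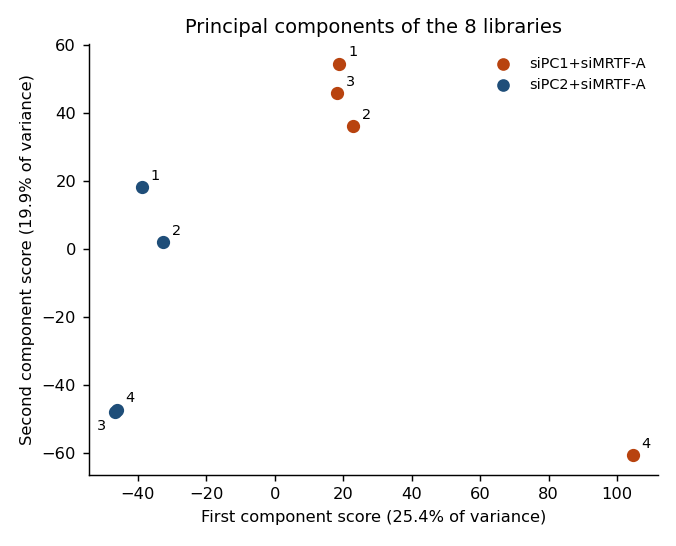
Scores of the 8 compared libraries on the first component (25.4% of the variance) and the second (19.9%), each point a library labelled with its replicate number. The siPC1+siMRTF-A libraries lie to the right of all siPC2+siMRTF-A libraries, and siPC1+siMRTF-A replicate 4 lies alone at 104.5 and -60.7.

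The first question was whether silencing one polycystin or the other left different transcript levels once MRTF-A was silenced too. Levels did differ, in both directions. Of 27702 transcripts tested, 718 (2.59%) were higher with siPC1+siMRTF-A and 808 (2.92%) were higher with siPC2+siMRTF-A, 1526 or 5.51% in all. With library totals in place of TMM factors the counts were 579 and 932, so the balance of the directions depended on the scaling. A transcript was called when it had an adjusted p (edgeR's quasi-likelihood test, Benjamini-Hochberg) no higher than 0.05, a log2 fold change beyond 0.6 in size and a normalized count averaging 50 or more over the 20 libraries. The 1526 make up 7.55% of the 20212 tested transcripts that reached this mean. Without the fold and mean thresholds, 4230 transcripts (15.3%) had an adjusted p of at most 0.05, and 7380 (26.6%) an unadjusted one. All log2 fold changes of this comparison are siPC1+siMRTF-A minus siPC2+siMRTF-A.

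Most of the differences were modest. The median log2 fold change was 0.84 among the 718 higher transcripts (quartiles 0.70 and 1.10) and -0.81 among the 808 lower ones (quartiles -1.01 and -0.69), with median standard errors of 0.17 and 0.15. The median of all 20212 tested transcripts with a mean count of at least 50 was 0.003. An absolute log2 fold change above 1 was reached by 238 of the higher and 209 of the lower transcripts, one above 2 by 22 and 15, and one above 3 by 4 and 5. All 9 of the transcripts above 3 had a library at 0 among the 8. The 4 libraries of one group lay entirely above the 4 of the other in 697 of the 718 and in 793 of the 808. Over all tested transcripts the libraries did so in 12.5% and 13.1%.

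**Figure D2:**
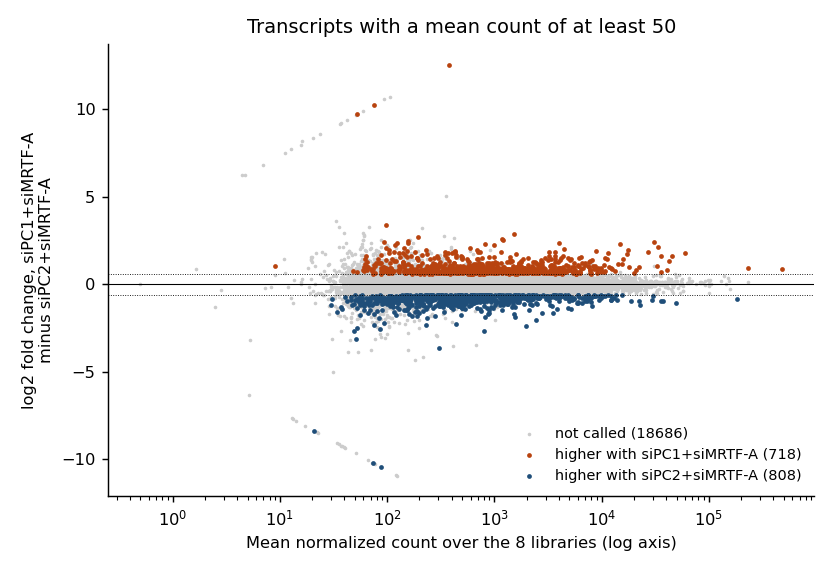
log2 fold change of siPC1+siMRTF-A minus siPC2+siMRTF-A against the mean normalized count over the 8 libraries (log axis), one point for each of the tested transcripts with a mean of at least 50 over the 20 libraries. The 718 transcripts called higher and the 808 called lower spread along the whole range of levels, and the oblique rows of points beyond 5 in size are transcripts with a group at or near 0.

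Both directions were found at every level of abundance. Among tested transcripts with a mean count from 50 to 200, 6.78% were called (129 higher, 199 lower). From 200 to 1000 it was 8.18% (295 and 362), from 1000 to 5000 6.88% (227 and 189), and from 5000 to 20000 9.72% (55 and 49). Above 20000 it was 9.21%, with 12 higher and 9 lower transcripts. With TMM factors, the balance leaned to lower transcripts below a mean of 1000 and to higher ones above it. The median normalized count over the 8 libraries was 737 for the higher and 487 for the lower set. Over all tested transcripts with a mean of at least 50 it was 598. The classes were not counted under another scaling, on which the balance of the directions depended. The median standard error of a tested transcript was 0.34 in the lowest class and 0.10 from 5000 to 20000, so a difference close to the fold threshold could be called less easily among rare transcripts.

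Called transcripts above a mean of 20000 had a median absolute log2 fold change of 0.98, against 0.78 to 0.92 in the classes below it. The 12 higher ones above a mean of 20000 had log2 fold changes from 0.67 to 2.41 with a median of 1.46. The 9 lower ones ran from -1.20 to -0.65 with a median of -0.96. None of these 21 had a library at 0 among the 8. Most of the 9 lower ones carry neighbouring identifiers, from ENSSSCT00000019660.4 to ENSSSCT00000019686.3, with log2 fold changes from -1.20 to -0.83. Whether these are separate cases or a single block that moved together was not tested. In the 8 libraries the higher set held 8.22% to 9.10% of the total estimated count with siPC1+siMRTF-A and 3.98% to 4.52% with siPC2+siMRTF-A. The lower set held 2.38% to 2.71% and 4.64% to 5.35%. Of this, ENSSSCT00000019670.1, which belongs to the neighbouring identifiers, alone held 0.31% to 0.71% in the 8 libraries.

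ENSSSCT00000005802.5 was the most abundant transcript of the 8 libraries and was higher with siPC1+siMRTF-A. Its normalized counts were 518294, 689105, 640903 and 664801 with siPC1+siMRTF-A, and 264545, 344235, 398849 and 352196 with siPC2+siMRTF-A. Every siPC1+siMRTF-A library lay above every siPC2+siMRTF-A library. The log2 fold change was 0.89 (SE 0.14, edgeR's quasi-likelihood test, adjusted p = 0.000184). The siNR libraries ran from 251768 to 293532, below all siPC1+siMRTF-A libraries and overlapping the lowest siPC2+siMRTF-A library. The same direction was seen without siMRTF-A, from 464392 to 677224 in the 5 siPC1 libraries and from 278647 to 350371 in the 3 siPC2 libraries. That difference was 0.80 (SE 0.14, adjusted p = 0.000459), and the interaction, the difference with siMRTF-A less the difference without it, was 0.09 with an approximate 95% interval from -0.30 to 0.47.

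ENSSSCT00000019670.1, the fourth most abundant transcript of the 8 libraries, was lower with siPC1+siMRTF-A. Its normalized counts were 124450, 120713, 137372 and 145271 with siPC1+siMRTF-A and 245889, 206097, 248580 and 238842 with siPC2+siMRTF-A. The groups did not overlap, and the log2 fold change was -0.83 (SE 0.15, adjusted p = 0.000956). All 4 siNR libraries, from 312426 to 417034, lay above both groups. Without siMRTF-A the siPC1 libraries ran from 158384 to 283174 and the siPC2 libraries from 227507 to 303343. These overlapped, with a log2 difference of -0.32 that did not pass the test (adjusted p = 0.155). The interaction of -0.51 did not pass it either (adjusted p = 0.465), so a difference between the settings was not shown for this transcript.

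Among the largest differences were those of transcripts present in one group and at 0 in the other. ENSSSCT00000084059.2 had normalized counts of 641.8, 920.1, 590.3 and 863.6 with siPC1+siMRTF-A. It was at 0 in all 4 siPC2+siMRTF-A, all 4 siNR and all 5 siPC1 libraries, and in siPC2 only replicate 3 held it, at 29.5. Its mean with siPC1+siMRTF-A was 754 ± 162 (SD, n = 4), at least 309-fold higher than with siPC2+siMRTF-A when the latter is set to a floor of 3 counts per library (adjusted p = 0.00187). The fitted log2 value of such a transcript depends on the small count added in the fit and is no bound.

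ENSSSCT00000050111.3 was at 0 in all 4 siPC1+siMRTF-A libraries. Its normalized counts with siPC2+siMRTF-A were 199.7, 262.2, 16.4 and 116.4. Their mean lay 48.1-fold above the same floor, though replicate 3 held only 16.4, so that this is no bound. The transcript was lower with siPC1+siMRTF-A (edgeR's quasi-likelihood test, adjusted p = 0.0105). It also varied within groups that did not enter the comparison. It was at 0 in 3 of 5 siPC1 libraries and at 172.5 and 200.6 in the others, and the siPC2 libraries held 152.2, 19.3 and 285.2. All 4 siNR libraries held it, from 118 to 180. These counts are estimates, in which Salmon shares reads out among the transcripts that they match. A level of 0 may therefore reflect how reads were divided, which was not tested.

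**Figure D3:**
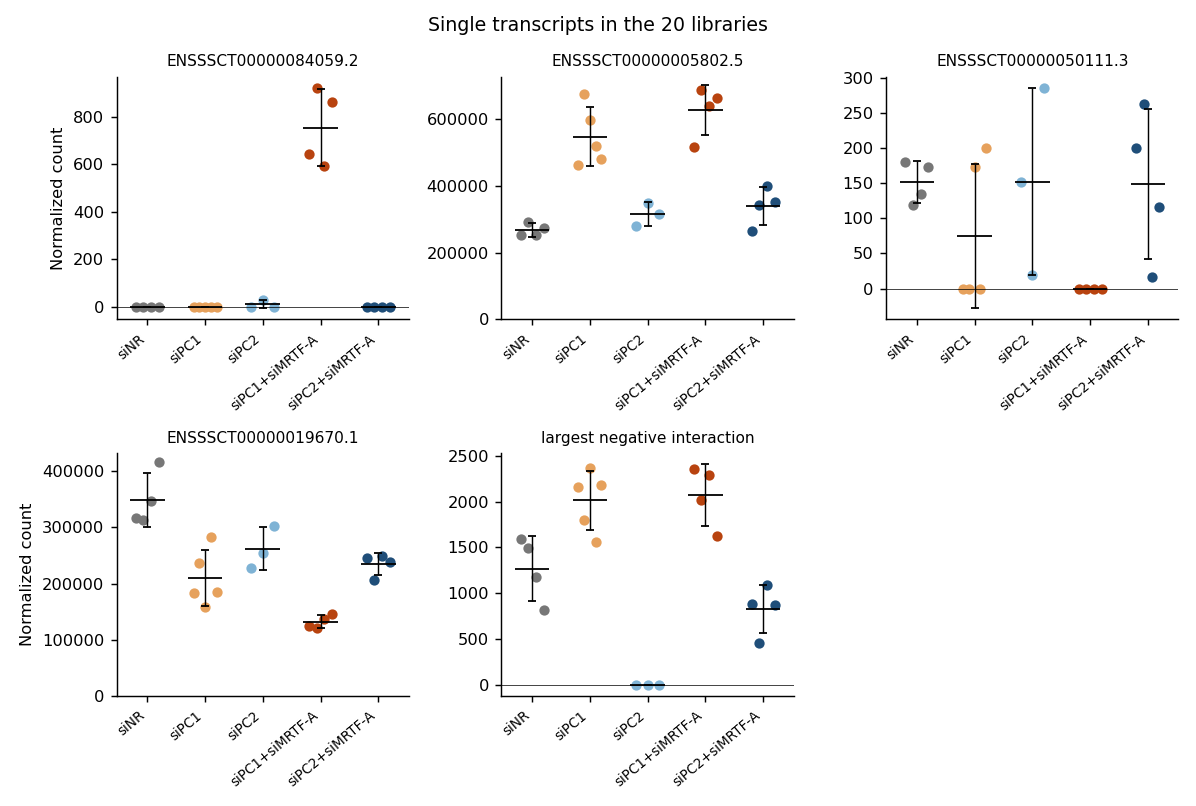
Normalized counts (linear axes) of the 4 named transcripts and of the transcript with the largest negative interaction in each of the 20 libraries, with the mean (horizontal line) and SD of each group. ENSSSCT00000084059.2 is seen in all siPC1+siMRTF-A libraries and at 29.5 in 1 siPC2 library, and the last transcript is at 0 in the 3 siPC2 libraries and from 457 to 1089 with siPC2+siMRTF-A.

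A test against the fold threshold itself, in place of a test against 0, called fewer transcripts. They were 141 higher and 131 lower, and of the 4 named transcripts only ENSSSCT00000084059.2 passed it.

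Some transcripts had no fractional estimate. Among the 20212 tested transcripts with a mean count of at least 50, 527 (2.61%) had whole-number estimates, within 0.0005, in all 8 libraries, and are called undivided here. A whole number does not show that no shared read was assigned. Of the undivided transcripts 93 (17.6%) were called, 26 higher and 67 lower. Of the 19685 with a divided count in some library, 1433 (7.28%) were called. The median absolute log2 fold change of the called transcripts was 0.92 among the undivided and 0.82 among the divided. None of the 4 named transcripts was undivided.

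The called transcripts were next followed through the siNR, siPC1 and siPC2 libraries. These were not part of the contrast, but they entered the filter, the mean threshold and the shared estimate of the spread. A model of the 8 compared libraries alone called 881 higher and 992 lower transcripts, 688 and 791 of them among the 718 and 808. The transcripts higher with siPC1+siMRTF-A lay above every siNR library in all libraries with siPC1, and by a smaller margin in the siPC2+siMRTF-A libraries. The transcripts lower with siPC1+siMRTF-A lay below every siNR library in all libraries with siPC1, and in the siPC2 libraries they lay above siNR. The measure was, in each library, the median over the set of the log2 level less the log2 mean of the siNR libraries.

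For the 718 higher transcripts this median was 1.07 to 1.19 in the siPC1+siMRTF-A libraries and 0.19 to 0.32 in the siPC2+siMRTF-A libraries. It was 0.85 to 1.03 in the 5 siPC1 libraries and 0.10 to 0.13 in the 3 siPC2 libraries, which did not overlap. For the 808 lower transcripts it was -0.80 to -0.75 with siPC1+siMRTF-A and 0.06 to 0.08 with siPC2+siMRTF-A. The siPC1 libraries ran from -0.83 to -0.75 and the siPC2 libraries from 0.18 to 0.23. All these values share the siNR libraries, whose own medians spread from -0.07 to 0.14 for the higher and from -0.10 to 0.06 for the lower set.

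**Figure D4:**
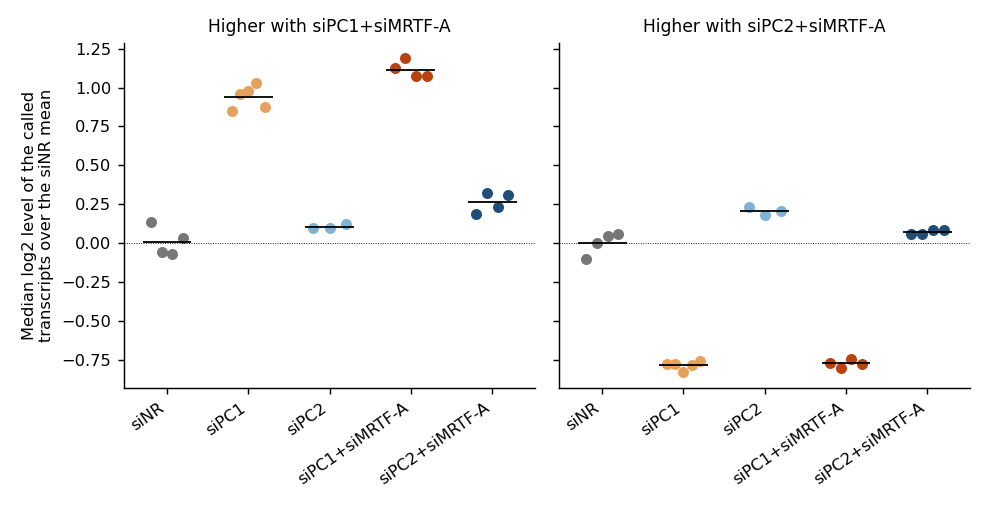
Median log2 level over the siNR mean of the 718 transcripts higher with siPC1+siMRTF-A (left) and of the 808 higher with siPC2+siMRTF-A (right), one point per library and a line at each group's mean. In both panels the siPC1 libraries, which were not part of the contrast, lie nearer to the siPC1+siMRTF-A than to the siPC2+siMRTF-A libraries, and the siPC2 libraries lie between 0.10 and 0.23.

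Per transcript the picture was less uniform. The siNR mean was nearer to siPC2+siMRTF-A than to siPC1+siMRTF-A for 515 of the 718 higher transcripts (71.7%) and for 538 of the 808 lower ones (66.6%), against 58.8% of all 20212. The siNR mean lay between the means of the compared groups for 175 of the higher (24.4%) and 295 of the lower transcripts (36.5%). Over all 20212 it did so for 15.2%. It lay below both for 420 of the higher ones (58.5%), against 44.7% of all. It lay above both for 370 of the lower ones (45.8%), close to the 40.1% of all. For 123 higher transcripts (17.1%) siNR lay above both groups, and for 143 lower transcripts (17.7%) below both. Each of the 123 was thus called higher with siPC1+siMRTF-A although neither group mean exceeded the control mean.

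By the share of the library, too, the siPC1 libraries lay above siNR in the higher set and below it in the lower set. The higher set took 7.48% to 8.42% of the total estimated count in siPC1 libraries, 3.70% to 3.82% in siPC2 and 2.56% to 3.21% in siNR. The lower set took 2.77% to 3.60% in siPC1, 5.28% to 5.83% in siPC2 and 5.42% to 5.74% in siNR. In the higher set both silenced groups with siMRTF-A exceeded every siNR library. In the lower set the siPC2 shares overlapped those of siNR, and the 4.64% to 5.35% of siPC2+siMRTF-A lay just below siNR. The medians of both groups had been above the siNR mean, so the measures differed there.

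The second question was whether the difference between siPC1 and siPC2 was the same with MRTF-A left intact. Nearly all transcripts called with MRTF-A silenced had a difference of the same sign without siMRTF-A, and most of them were also called there. The siPC1 and siPC2 libraries share no library with the compared groups. Of the 1526 called transcripts, 1518 (99.5%) had a siPC1 minus siPC2 difference of the same sign, 712 of 718 and 806 of 808, where 79.6% of all 20212 did. By the same rule 1230 of the 1526 (80.6%) were also called the same way in the siPC1 and siPC2 libraries, 563 higher and 667 lower. Another 295 were not called there, and 1 was called the opposite way, ENSSSCT00000084059.2. That opposite call rested on siPC2 replicate 3 alone, at 29.5, with all other siPC1 and siPC2 libraries at 0.

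Called transcripts were more numerous without siMRTF-A in this fit, 1552 higher (5.6%) and 1601 lower (5.78%) with siPC1, or 11.4% of those tested. The 1230 shared transcripts make up 39.0% of these. The fit used a shared estimate of the spread. The median SD of the log2 levels was 0.24 with siPC1, 0.15 with siPC2, 0.15 with siPC1+siMRTF-A and 0.16 with siPC2+siMRTF-A. The siPC1 and siPC2 groups also hold both shallow libraries. A count for that pair from its own libraries alone is not given here. Across the 20212 transcripts the log2 differences of the pairs had a Pearson's r of 0.42 and a Spearman's rho of 0.73. This is a description across transcripts of one table, which are not independent. All 12 of the higher transcripts above a mean of 20000 were called the same way in both settings, and 2 of the 9 lower ones. The lower 7 had the same sign in the intact pair, where the 9 ran from -1.05 to -0.26. These 7 are among the transcripts with neighbouring identifiers given above.

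One estimate of the spread served all groups in these counts. When each pair was fitted from its own libraries, 98.2% of the called transcripts still had the same sign without siMRTF-A, and 60.2% were called the same way. Without the 2 shallow libraries, on plain means of the log2 levels, 711 of the 718 and 804 of the 808 had the same sign, with median differences of 0.96 and -0.98.

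The sizes of the differences were set side by side. For the 718 higher transcripts the median log2 difference was 0.84 with siMRTF-A and 0.93 without, and for the 808 lower transcripts -0.81 and -0.97. The difference was smaller in size with siMRTF-A for 948 of the 1526 (62.1%), against 66.1% of all 20212 transcripts, so nothing particular to the called transcripts is read from it. The 295 transcripts called only with siMRTF-A had a median of 0.75 in the direction of the call there and 0.47 without it, and 288 of them kept the sign. The 1922 called only without siMRTF-A had medians of 0.43 with siMRTF-A and 0.78 without, and 1863 kept the sign. A transcript called in one setting and not in the other had thus in most cases the same direction in both, and the test of the interaction called 2 of the 295 and 49 of the 1922.

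**Figure D5:**
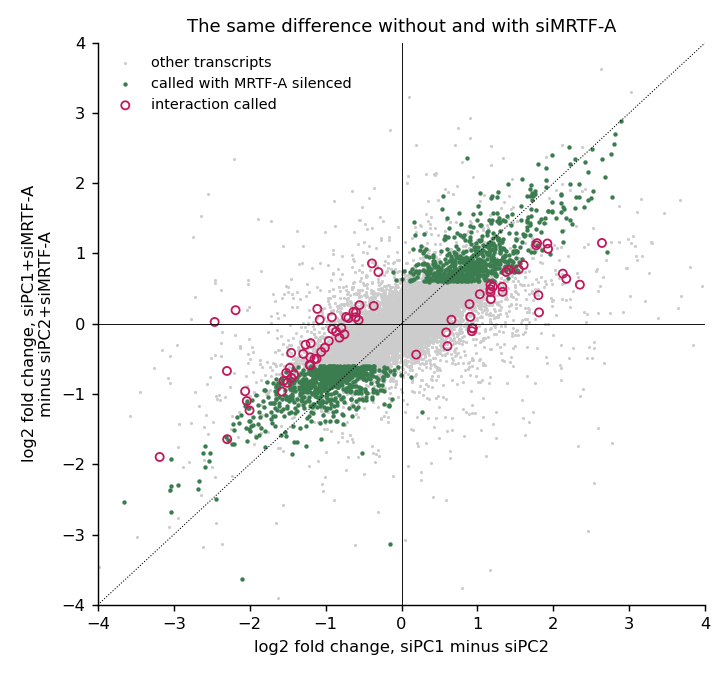
log2 fold change with siMRTF-A (vertical) against that without (horizontal) for the 20089 of 20212 transcripts within 4 on both axes, with the line of equality dotted. The transcripts called with MRTF-A silenced fall almost all where both differences have the same sign, and most of the 76 circled interactions shown are smaller on the vertical than on the horizontal axis.

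The interaction itself passed the test for few transcripts. edgeR called 46 positive (0.166%) and 36 negative interactions (0.13%), 82 or 0.296% of those tested, while 173 (0.625%) had an adjusted p of at most 0.05 at any fold or mean and 2582 (9.32%) an unadjusted one. In all 46 positive cases the siPC1 minus siPC2 difference was negative without siMRTF-A, and in all 36 negative cases it was positive. The difference was smaller in size with siMRTF-A in 78 of the 82, where it was so for 66.1% of all 20212. Since the difference without siMRTF-A is a term of the interaction that chose these transcripts, these signs and sizes are a description and no result. The median difference went from -1.17 without siMRTF-A to -0.29 with it in the positive cases, and from 1.40 to 0.51 in the negative ones.

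Of the 82 transcripts, 49 were called only without siMRTF-A, 25 in both settings the same way, 2 only with siMRTF-A, 1 in opposite ways and 5 in neither. The number of interactions moved with the tool and the libraries. DESeq2 called 271, 236 of them smaller with siMRTF-A, and a fit without the 2 shallow libraries called 63, 61 of them smaller. Leaving out siPC1+siMRTF-A replicate 2 left 38, 34 of them smaller.

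The largest negative interaction was of a transcript that siPC2 libraries lacked. It was at 0 in all 3 siPC2 libraries and between 1558 and 2363 in the 5 siPC1 libraries. With siPC2+siMRTF-A its normalized counts were 882, 457, 1089 and 875, and with siPC1+siMRTF-A 2355, 2015, 2291 and 1620. The siNR libraries held 810 to 1594, so the siPC2 libraries alone lacked it. The difference between the compared groups was 1.33 (SE 0.25, adjusted p = 0.0013), with no overlap.

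The counts of called transcripts rested on no single library of the 8. Each library left out in turn gave 616 to 711 higher and 720 to 778 lower transcripts. Without siPC1+siMRTF-A replicate 4, the library that stood apart, 698 and 778 were called, of which 637 and 709 were among the 718 and 808.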

How the data were processed

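The authors trimmed the reads with Trim Galore, quantified transcripts with Salmon 0.14.1 against pig coding sequences of the Sscrofa11.1 annotation, and deposited these estimated counts without normalization. FastQC 0.11.8 and HISAT2 are also named in the submitters' processing notes. Single-read and paired-end runs are both given without saying which library had which. Of its 46295 transcripts, 8733 had no count in any library. All 20 columns were used.

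The expected counts, rounded to integers, were tested with edgeR 4.0.16 (R 4.3.3). filterByExpr by group kept 27702 transcripts, TMM factors set the scale, and 1 quasi-likelihood model of the 5 groups gave all contrasts. p-values were adjusted by Benjamini-Hochberg over all 27702 transcripts. Calls used the 3 thresholds given with the first count above (0.05, 0.6 and 50). Standard errors were derived from the F statistic of each contrast, and approximate intervals from them. Principal components and correlations used log2 normalized counts. The named transcripts are, in each direction and among called transcripts whose groups do not overlap, the one of largest fold change and the most abundant one. Groups, lists and rules were chosen with earlier results of these data known.

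The total count per library was 4421001 to 71007731. Counts within a group differed by more than sampling noise (chi-square per degree of freedom 11.1 to 50.5 over 12 pairs of the 8 libraries), so each library was counted once. The alternatives were DESeq2 1.42.0, library totals in place of TMM, another filter, no minimum mean, no fold threshold, glmTreat, fewer libraries and a replicate block. The test of the compared groups, but not that of the interaction, was tried on simulated data, and no result above rests on that trial. Genes, sequences and the siRNA targets were not analysed here.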

Additional observations from a re-analysis of the deposited data

Results flagged for a closer look

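The interaction differed from 0 in 46 positive and 36 negative cases by edgeR's test of the difference between the settings. The largest positive one was of ENSSSCT00000084059.2, with a fitted value of 19.08 (adjusted p = 0.0248). It is no bound, since 3 of the 4 groups in it were at 0 in all libraries or all but 1. The call was lost without siPC2 replicate 3, without any one of the 4 siPC1+siMRTF-A libraries (adjusted p = 0.0551 to 0.0701), and under the replicate block (adjusted p = 0.144). It was also lost with glmTreat (adjusted p = 0.229). The largest negative one, -12.64 (adjusted p = 6e-06), belongs to the transcript at 0 in all 3 siPC2 libraries, and is no bound either.

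On the principal components of the 8 libraries, siPC1+siMRTF-A replicate 4 was far from the other libraries of its group, with scores of 104.5 on the first and -60.7 on the second component, where the other 3 had 18.2 to 23.0 and 36.0 to 54.4. In the share of the library held by the 808 lower transcripts, siPC1+siMRTF-A replicate 2 was lowest at 2.38%, apart from the other 3 libraries of its group. How often chance alone marks a library in this way was not tested.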

How the results depend on the processing

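The direction of the 4 named differences held under every alternative run. DESeq2 (845 higher, 924 lower), library totals (579, 932), the other low-count filter (690, 775), no minimum mean (774, 884), a model of only the compared libraries (881, 992), and one without the 2 shallow libraries (774, 914) kept the counts of the main comparison within 1.5 times. Without a fold threshold they were 1963 and 2135, and with glmTreat 141 and 131, where ENSSSCT00000005802.5, ENSSSCT00000050111.3 and ENSSSCT00000019670.1 lost their calls (adjusted p = 0.303, 0.0853 and 0.627). A model of the 8 libraries less siPC1+siMRTF-A replicate 4, chosen after seeing the data, gave 856 and 956. Interactions numbered 95 and 76 without a fold threshold, 2 and 3 with glmTreat, and 130 and 141 with DESeq2, which alone called that of ENSSSCT00000050111.3 (-23.6, adjusted p = 5.5e-17). That value is no bound, since every siPC1+siMRTF-A library was at 0, and edgeR's quasi-likelihood test gave -9.25 (adjusted p = 0.25). The share of called transcripts with the same sign without siMRTF-A was 98.7% with no minimum mean, 98.4% with no fold threshold, 98.3% with DESeq2, 98.2% in separate models and 98.9% without the shallow libraries. The share called the same way was 77.7%, 83.7%, 78.3%, 60.2% and 75.8% in that order, and 83.5% with glmTreat. The cause of these shifts was not tested. With each library left out in turn, higher transcripts numbered 616 to 711, lower ones 720 to 778, positive interactions 21 to 59 and negative ones 14 to 42, and the shares ran from 99.1% to 99.5% and from 75.4% to 83.2%. Positive interactions were 30 or fewer without siPC2 replicate 3 or 4, siPC1+siMRTF-A replicate 2, 3 or 4, or siPC2+siMRTF-A replicate 1, 3 or 4. Negative ones were 23 or fewer without siPC1 replicate 3, siPC2 replicate 2, any siPC1+siMRTF-A library, or siPC2+siMRTF-A replicate 1, 2 or 4. Deviations of same-numbered libraries from their group means correlated with r from 0.03 to 0.18 in 4 pairs. Those of differently numbered libraries ran from -0.15 to 0.07 in 12 pairs. Whether a number marks a shared culture was not tested. The replicate block gave 768 higher and 829 lower transcripts with 52 and 36 interactions over all numbered libraries, and 878 and 943 with 53 and 44 over the groups compared. The interaction of ENSSSCT00000005802.5, 0.09 and not called, turned to -0.021 and -0.045 under these blocks and, with single libraries left out, ran from -0.015 (without siPC2+siMRTF-A replicate 1) to 0.17. Depth limits rare transcripts, with a median standard error of 0.34 below a mean of 200.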
